A study of Homo sapiens with 4 samples.

Results

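Replication-dependent histone genes encode the bulk histones that package newly copied DNA, and here they were taken as every gene whose symbol names a member of the HIST1, HIST2 or HIST3 cluster and a histone class, leaving out symbols that end as pseudogene names do. This gave 73 of the 58870 genes in the deposited tables. They comprise 6 genes of the linker histone H1, 17 of H2A, 22 of H2B, 14 of H3 and 14 of H4. HIST1 on chromosome 6 holds 55 of them, and HIST2 and HIST3, both on chromosome 1, hold 14 and 4. Total RNA was sequenced from BJ cells, an established line of human skin fibroblasts, in 4 libraries. In the Dox group (2 libraries) the cells were given Dox, an agent whose name the labels do not spell out, at 250 nM. In the control group (2 libraries) they received DMSO, the solvent, in its place. The series design puts 24 hours of exposure first and 10 days during which cells could senesce after it, an order used here, although the protocol of the samples can also be read the other way round. The sample titles call the libraries YOUNG CONTROL and AGEDDox. Both groups are the same line with no stated genetic change, so the study describes 1 line. Nothing in the labels tells whether replicates came from separate cultures, and every p-value below therefore rests on the spread between libraries that may be technical repeats.

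Most messenger RNAs end in a poly(A) tail, but those of replication-dependent histone genes normally end just after a conserved stem-loop, which the protein SLBP binds. Their genes lie in clusters, are transcribed and processed in nuclear histone locus bodies mainly while DNA is being replicated, and their transcripts are degraded when replication stops. Many of the genes can also give a longer, polyadenylated transcript from a site downstream of the stem-loop, a form known from cells that have left the cycle or differentiated. The variants that serve outside replication, such as H3.3 and H2A.Z, come from genes elsewhere with ordinary polyadenylated transcripts.

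The stem-loop and the promoter letters are shown first, because they define how these genes are made into RNA and they separate the classes. The stem-loop was searched as 16 bases (GG, any 2 bases, CTTTT, any base, AG, any 2 bases, CC) on the sense strand of the transcripts of GENCODE 29. It was present in 32 of the 73 members (43.8%), against 80 of 58721 genes of the annotation (0.136%). By class it was found in 0 H1, 7 H2A, 13 H2B, 5 H3 and 7 H4 genes. This says only that these letters are or are not in the annotated transcripts, and a stem-loop beyond an annotated end would be missed. The arms were exact complements, G with C and A with T, in 30 of the 32. The search already fixed the other letters of the arms as complements, so only the 2 free bases of each arm could differ. The 5 versions found, 1 member each, are printed with both arms in capitals and the loop in lower case:
HIST1H2BE: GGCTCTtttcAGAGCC
HIST1H2BD: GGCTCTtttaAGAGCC
HIST1H4J: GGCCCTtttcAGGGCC
HIST2H4A: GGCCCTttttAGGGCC
HIST2H2BD: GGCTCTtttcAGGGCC
The version of HIST1H2BE was carried by 18 members, that of HIST1H2BD by 5, that of HIST1H4J by 4 and that of HIST2H4A by 3. The last one, whose arms are not exact complements because a T lies opposite a G, was found in HIST2H2BD and HIST1H2AG. In 14 of the 32 members the shortest transcript with the stem-loop ended within 100 bases after it, and in 18 it ran on for more.

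Promoter windows from RefSeq (GRCh38.p14), each running from 250 bases before to 50 bases after the gene start, matched 59 of the 73 members. They were searched on both strands for TATAAA (the TATA box), CCAAT (the site of NF-Y), ATTTGCAT (the octamer bound by OCT1), AAACACA (the AC box of H1 promoters) and GGTCCG (part of the H4 element that HINFP binds). TATAAA was in 66.1% of the member promoters, against 12% of all 27305 promoters, and CCAAT in 84.7%, against 35.7%. CCAAT was in every matched H1, H2A, H2B and H3 promoter and in 25% of the H4 promoters. ATTTGCAT was in 68.8% of H2A and 69.2% of H2B promoters and in none of H1 or H4, against 1.8% of all promoters. It was in 8.33% of H3 promoters, but only through the window matched to HIST1H3D. That window is also the one of HIST1H2AD, was counted for both genes, and does not overlap the annotated position of HIST1H3D. The CCAAT counted for HIST1H3D comes from the same shared window. Windows of neighbouring H2A and H2B genes can also overlap, as those of HIST2H2AC and HIST2H2BE do, so the same site can be counted for both classes. The ATTTGCAT shares of H2A and H2B are therefore not independent. AAACACA was in all 6 H1 promoters, against 5.76% of all promoters. GGTCCG was in 91.7% of H4 promoters, against 11.2% of all promoters. The windows of 4 members that recur below are printed as examples of an H1, an H2B, an H3 and an H4 promoter, at chr6:27867539-27867838 (minus strand), chr1:149886633-149886932 (minus strand), chr6:26271364-26271663 (minus strand) and chr6:27823842-27824141 (plus strand), with any of the 5 motifs in capitals, on either strand and overlapping where they do:
HIST1H1B: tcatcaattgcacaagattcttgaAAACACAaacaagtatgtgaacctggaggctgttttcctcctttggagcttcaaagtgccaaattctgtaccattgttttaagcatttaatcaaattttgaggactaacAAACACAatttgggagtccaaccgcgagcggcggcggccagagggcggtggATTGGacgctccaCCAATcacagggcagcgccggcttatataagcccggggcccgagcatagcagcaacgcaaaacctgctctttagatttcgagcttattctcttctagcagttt
HIST2H2BE: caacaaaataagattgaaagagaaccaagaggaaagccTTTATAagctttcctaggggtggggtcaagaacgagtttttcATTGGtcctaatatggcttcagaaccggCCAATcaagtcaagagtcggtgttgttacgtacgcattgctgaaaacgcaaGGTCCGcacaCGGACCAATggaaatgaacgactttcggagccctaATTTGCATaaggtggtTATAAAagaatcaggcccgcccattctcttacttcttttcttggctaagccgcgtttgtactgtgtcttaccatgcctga
HIST1H3G: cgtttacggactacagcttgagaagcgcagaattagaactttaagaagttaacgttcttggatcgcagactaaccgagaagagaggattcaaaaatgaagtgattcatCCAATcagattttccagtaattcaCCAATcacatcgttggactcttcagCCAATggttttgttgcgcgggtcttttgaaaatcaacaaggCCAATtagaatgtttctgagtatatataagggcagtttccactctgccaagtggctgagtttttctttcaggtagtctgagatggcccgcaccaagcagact
HIST1H4J: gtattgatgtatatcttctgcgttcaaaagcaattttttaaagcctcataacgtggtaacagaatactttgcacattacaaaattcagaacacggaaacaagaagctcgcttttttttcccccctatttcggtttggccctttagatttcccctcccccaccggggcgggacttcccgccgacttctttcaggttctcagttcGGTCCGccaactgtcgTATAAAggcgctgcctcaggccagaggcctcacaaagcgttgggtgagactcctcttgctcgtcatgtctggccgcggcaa
The H1 window holds AAACACA more than once beside a pair of CCAAT sites on opposite strands. The H2B window holds TATAAA, ATTTGCAT and CCAAT, and GGTCCG as well. The H3 window holds CCAAT repeatedly, and the H4 window holds GGTCCG upstream of TATAAA and no CCAAT. A match of letters is a description of the window and not a bound site.

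The libraries had 42880682 and 43429426 expected counts in Dox and 42744729 and 47798920 in control, of which the members took 20262 and 22483 in Dox and 34753 and 39370 in control. The Dox replicates differed more from each other (chi-square per degree of freedom 60.5) than the control replicates did (2.4), and neither pair was within sampling noise. The difference between the Dox libraries followed GC content (Spearman rho = -0.598 over 16729 genes, which are not independent replicates), while Dox over control did not (-0.0382). Members have a median GC content of 57.4%, against 48.5% over all genes tested, and 42 of 66 tested members were higher in Dox 2 than in Dox 1. Among the 66 tested members alone, higher GC content went with a lower log2 fold change of Dox over control (Spearman rho = -0.354, a description). All 10 fibroblast markers were at 1 TPM (a level per transcript length) or more in every library, and none of 14 markers of keratinocytes, melanocytes, endothelial cells or leukocytes reached that level in all. The summed TPM of each of those other lists was at most 0.25 in Dox and 0.07 in control, with 2 keratinocyte markers and 1 leukocyte marker at 0 throughout. In bulk RNA, fewer cells that transcribe histone genes cannot be told apart from less histone RNA in each cell.

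Summed histone transcripts were lower in both Dox libraries in all 5 classes, on the CPM scale most of all for H3 and least for H2A. Of the 66 members with enough counts to test, 51 fell, 1 rose and 14 did not pass, by the quasi-likelihood test of edgeR at a threshold of 0.05 after adjustment by Benjamini and Hochberg's method. Over all 16749 genes tested, 13.8% were called lower and 16.5% higher. The median log2 fold change of the tested members was -1.24, against -0.00 over all genes tested. Both Dox libraries lay below both control libraries for 60 of the 66, against 34.5% of all genes. The fitted value was negative for 64, where the median over all genes tested lay at -0.00. At 50% of control or below were 42, and the share of all genes at that level was not taken. Summed over all members, the level in CPM (counts scaled to library size, here by TMM) was 474 and 496 CPM in Dox, against 833 and 839.8 CPM in control. Both Dox sums were lower, at 58.0% of control on average (log2 difference -0.79, and -0.83 to -0.75 over the 4 pairings of a Dox with a control library). With 2 libraries against 2, an exact two-sided permutation test of any such sum can go no lower than p = 0.333, which is the value reached for each sum given here.

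Other tests moved the number of calls but not its direction. DESeq2's Wald test called 49 members lower, against 11% of all genes, and 0 higher. A test against a 1.5-fold change (edgeR's glmTreat) called 33 lower, against 2.87% of all genes. limma on log2(TPM + 1) called 18 lower, against 1.18% of all genes, and on log2(TPM + 0.1) also 18, against 1.18%. On those scales the median of all genes moved to 0.06 and 0.13, and that of the tested members was -0.76 and -1.09.

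**Figure D1:**
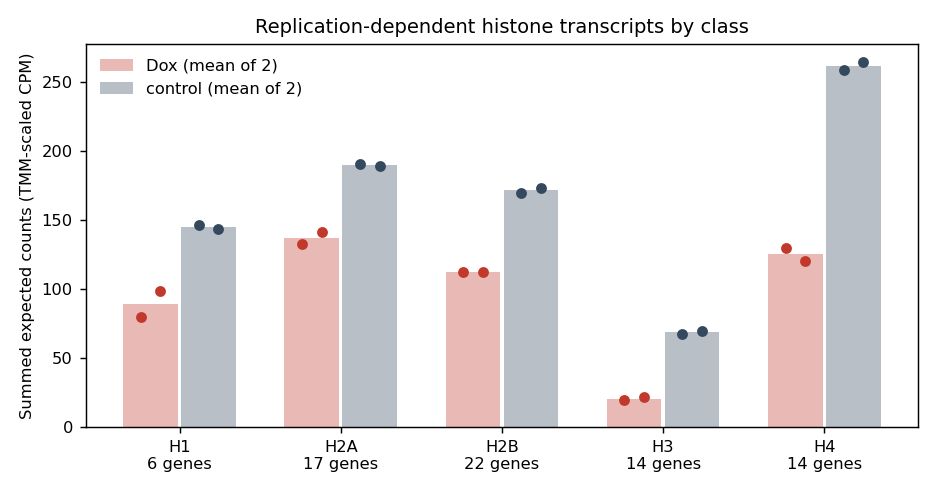
Summed expression of each histone class (TMM-scaled CPM, vertical axis) in Dox (red, left) and control (grey, right), with bars for the mean of 2 libraries and points for each library. In every class both Dox points lie below both control points, with H3 at 19.6 and 22.1 CPM in Dox against 67.9 and 69.7 CPM in control.

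H1, the linker histone that binds DNA between nucleosomes, was at 79.6 and 99.0 CPM in Dox, against 146 and 144 CPM in control. The groups did not overlap, and Dox 1 was lower than Dox 2 (log2 difference of means -0.70, range over pairings -0.88 to -0.54). All 5 tested H1 genes fell. HIST1H1C, which took the largest part of H1 counts, was at 47.8 and 61.4 CPM in Dox, against 79.5 and 76.5 CPM in control (edgeR log2 fold change -0.51, SE 0.12, adjusted p = 0.0235). Its fall was the smallest of the class, and it did not pass when control 1 or control 2 was left out. HIST1H1E was at 24.1 and 29.5 CPM in Dox, against 47.6 and 45.3 CPM in control (-0.79, SE 0.11, edgeR adjusted p = 0.0035). HIST1H1D, at 4.58 and 4.96 CPM in Dox against 8.63 and 9.77 CPM in control, fell by 0.95 on the log2 scale.

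HIST1H1B, whose promoter is printed above, fell most among the H1 genes. It was at 2.43 and 2.87 CPM in Dox, against 9.75 and 11.03 CPM in control (log2 fold change -1.97, SE 0.15, edgeR adjusted p = 0.000397). HIST1H1A, with few counts, was at 0.351 and 0.309 CPM in Dox, against 0.958 and 1.05 CPM in control, and fell by 1.60 on the log2 scale. The share of H1 counts from HIST1H1C was thus 60.1% and 62.0% in Dox, against 54.3% and 53.2% in control, with Wilson 95% intervals of 58.5 to 61.8% and 60.6 to 63.4% in Dox and 53.1 to 55.6% and 52.0 to 54.4% in control, for counting error only. HIST1H1T, the testis form, had 10 and 1 counts in Dox and 0 and 2 in control and was not tested.

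H2A, which pairs with H2B in the nucleosome, was the class that differed least in its CPM sum (in summed TPM it was H1, with a log2 difference of -0.46 against -0.48 for H2A), at 133 and 141 CPM in Dox, against 191 and 189 CPM in control. Both Dox libraries were lower (log2 difference -0.47, range -0.52 to -0.42). The median fold change of its tested genes was larger, at -1.41, and 11 of 16 fell, 0 rose and 5 did not pass. The 3 genes of the class with the most counts were among those that did not pass. HIST1H2AC, with the most counts of any H2A gene, was at 74.6 and 74.6 CPM in Dox, against 86.5 and 83.3 CPM in control (edgeR log2 fold change -0.19, SE 0.07, adjusted p = 0.0932). HIST2H2AA3 and HIST2H2AA4, near-identical copies in HIST2 that encode the same protein, share reads, so their single values are uncertain. Together they were at 37.4 and 39.6 CPM in Dox, against 42.4 and 42.3 CPM in control (edgeR log2 fold change of the summed counts -0.14, SE 0.07, adjusted p = 0.209). These 3 genes took 84.4% and 80.7% of H2A counts in Dox, against 67.6% and 66.5% in control. The other H2A genes summed to 20.8 and 27.3 CPM in Dox, against 61.8 and 63.3 CPM in control, or 38.4% of control. Among these, HIST1H2AL fell by 1.98 and HIST2H2AB fell by 1.85 on the log2 scale. HIST1H2AA, a testis form, had 0 counts in every library.

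H2B was at 112.27 and 112.35 CPM in Dox, against 169.5 and 173 CPM in control (log2 difference -0.61, range -0.63 to -0.59). Of its 20 tested genes 14 fell and 1 rose, around a median log2 fold change of -0.88, and 5 did not pass. HIST1H2BC, first in mean CPM over the 4 libraries, was at 19.8 and 16.6 CPM in Dox, against 32.1 and 34.5 CPM in control (edgeR log2 fold change -0.87, SE 0.11, adjusted p = 0.00242). HIST1H2BG was at 14.2 and 13.98 CPM in Dox, against 20.5 and 23.6 CPM in control (-0.65, SE 0.10, edgeR adjusted p = 0.00537), and did not pass without control 2. Both had Dox libraries below the control libraries. HIST2H2BE was at 21.04 and 20.04 CPM in Dox, against 23.5 and 20.5 CPM in control (-0.10, SE 0.10, edgeR adjusted p = 0.49), and the groups overlapped, since Dox 1 lay above control 2. HIST1H2BD, at 15.6 and 16.6 CPM in Dox against 17.9 and 17.7 CPM in control, and HIST1H2BK, at 8.29 and 11.2 CPM in Dox against 11.4 and 12.0 CPM in control, did not pass either. HIST2H2BE, HIST1H2BD and HIST1H2BK, grouped here after their values were seen, made up 39.99% and 42.5% of H2B counts in Dox, against 31.1% and 28.99% in control.

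The H2B genes that fell most had few counts. HIST1H2BB was at 0.257 and 0.397 CPM in Dox, against 1.85 and 1.83 CPM in control (edgeR log2 fold change -2.48, SE 0.27, adjusted p = 0.00147). HIST1H2BO fell by 2.31 on the log2 scale. HIST2H2BD, which the annotation calls a pseudogene, was the 1 member that rose, at 3.82 and 3.34 CPM in Dox, against 2.28 and 2.55 CPM in control (edgeR log2 fold change 0.56, SE 0.17, adjusted p = 0.0464). It did not pass without control 1 or control 2, or by DESeq2. All its counts were assigned to the longer of its transcripts, of 3612 bases, in all 4 libraries, and an annotated gene on the opposite strand overlaps it over 1989 bases. Whether the counting used strand is not given in the sources used here. The testis form HIST1H2BA and HIST3H2BA, annotated as a pseudogene, had 0 counts throughout.

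H3, the partner of H4 in the nucleosome core, was lowest relative to control of all classes, at 19.6 and 22.1 CPM in Dox, against 67.9 and 69.7 CPM in control. Dox was at 30.3% of control (log2 difference -1.72, range -1.83 to -1.62), and the class took 4.13% and 4.47% of member counts in Dox, against 8.15% and 8.30% in control. Of 13 tested genes 10 fell and 3 did not pass (median -1.78). HIST1H3G, whose promoter with its repeated CCAAT is printed above, was at 1.33 and 1.52 CPM in Dox, against 9.54 and 9.17 CPM in control (edgeR log2 fold change -2.71, SE 0.15, adjusted p = 0.000137). HIST1H3B fell by 2.48 on the log2 scale, and HIST1H3H, at 3.55 and 3.46 CPM in Dox against 9.80 and 8.57 CPM in control, fell by 1.39. HIST1H3E, at 6.22 and 6.64 CPM in Dox against 9.68 and 10.2 CPM in control, fell least (-0.63, SE 0.11, edgeR adjusted p = 0.00804) and did not pass without control 2. HIST1H3I, at 0.865 and 1.04 CPM in Dox against 1.29 and 2.09 CPM in control, did not pass (-0.84). HIST3H3, the testis form, had 0 counts.

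HIST2H3A and HIST2H3C are near-identical copies that encode the same protein, and the estimator divided their reads unevenly. HIST2H3C had 44.7 and 0 counts in Dox, against 592 and 333 in control, and HIST2H3A had 44.7 and 118 in Dox, against 0 and 333 in control. The single values, a log2 fold change of -4.36 for HIST2H3C, called by edgeR but not by DESeq2, and an uncalled -0.97 for HIST2H3A, are therefore uncertain. Summed before the test, the pair was at 2.09 and 2.61 CPM in Dox, against 14.2 and 14.2 CPM in control (edgeR log2 fold change -2.60, SE 0.14, adjusted p = 0.000131). Both Dox libraries were far below both control libraries. HIST2H3D, their neighbour, had 27.0 and 20.8 counts in Dox, against 42.6 and 77.2 in control (-1.30), and did not pass without control 2. Each of the pair overlaps an H4 gene on the opposite strand over 230 bases, HIST2H3C with HIST2H4A and HIST2H3A with HIST2H4B.

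H4 had the most counts of any class in control and stood at 129.6 and 121 CPM in Dox, against 258 and 264 CPM in control (log2 difference -1.06, range -1.13 to -0.99). Of 12 tested H4 genes 11 fell and 1 did not pass (median -1.26). HIST1H4E, first in counts, was at 49.9 and 43.4 CPM in Dox, against 89.2 and 93.3 CPM in control (edgeR log2 fold change -0.97, SE 0.09, adjusted p = 0.000874). HIST1H4J was at 18.2 and 18.4 CPM in Dox, against 49.1 and 49.1 CPM in control (-1.42, SE 0.08, edgeR adjusted p = 0.000132). Replicates were close together in both groups and far apart between them. HIST1H4H, at 14.3 and 13.98 CPM in Dox against 30.2 and 30.5 CPM in control, fell by 1.10. HIST1H4I fell by 2.25 and HIST1H4F fell by 1.85 on the log2 scale.

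HIST2H4A and HIST2H4B, copies of the same protein, together were at 20.4 and 22.1 CPM in Dox, against 32.4 and 32.1 CPM in control (edgeR log2 fold change of the summed counts -0.60, SE 0.08, adjusted p = 0.00346). Read singly, HIST2H4A fell by 0.78 and HIST2H4B (-0.07) did not pass, values that depend on how shared reads were divided. HIST1H4K, with 0 and 5.54 counts in Dox and 0 and 0 in control, was not tested, and HIST1H4G had 0 counts throughout. HIST4H4, an H4 gene outside the 3 clusters, was at 13.2 and 13.2 CPM in Dox, against 21.4 and 21.03 CPM in control (edgeR log2 fold change -0.68, SE 0.08, adjusted p = 0.00231).

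Levels can be set beside each other between genes only per transcript length, in TPM. On that scale HIST1H1C was highest in Dox (26.6 and 54.3 TPM), followed by HIST1H4J (25.2 and 40.1 TPM), while in control HIST1H4J was highest (74.8 and 76.1 TPM), ahead of HIST1H1C (49.4 and 48.7 TPM). The order of the leading genes was thus exchanged between the groups. HIST1H1C overlapped between the groups in TPM, unlike in CPM. Of the 73 members, 37 were at 1 TPM or more in all 4 libraries. TPM levels in Dox 1 lay below those of Dox 2 for other genes too, with fibroblast markers summing to 1760 and 3253 TPM in Dox and 2290 and 2346 TPM in control, and CPM is used for comparisons across libraries.

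**Figure D2:**
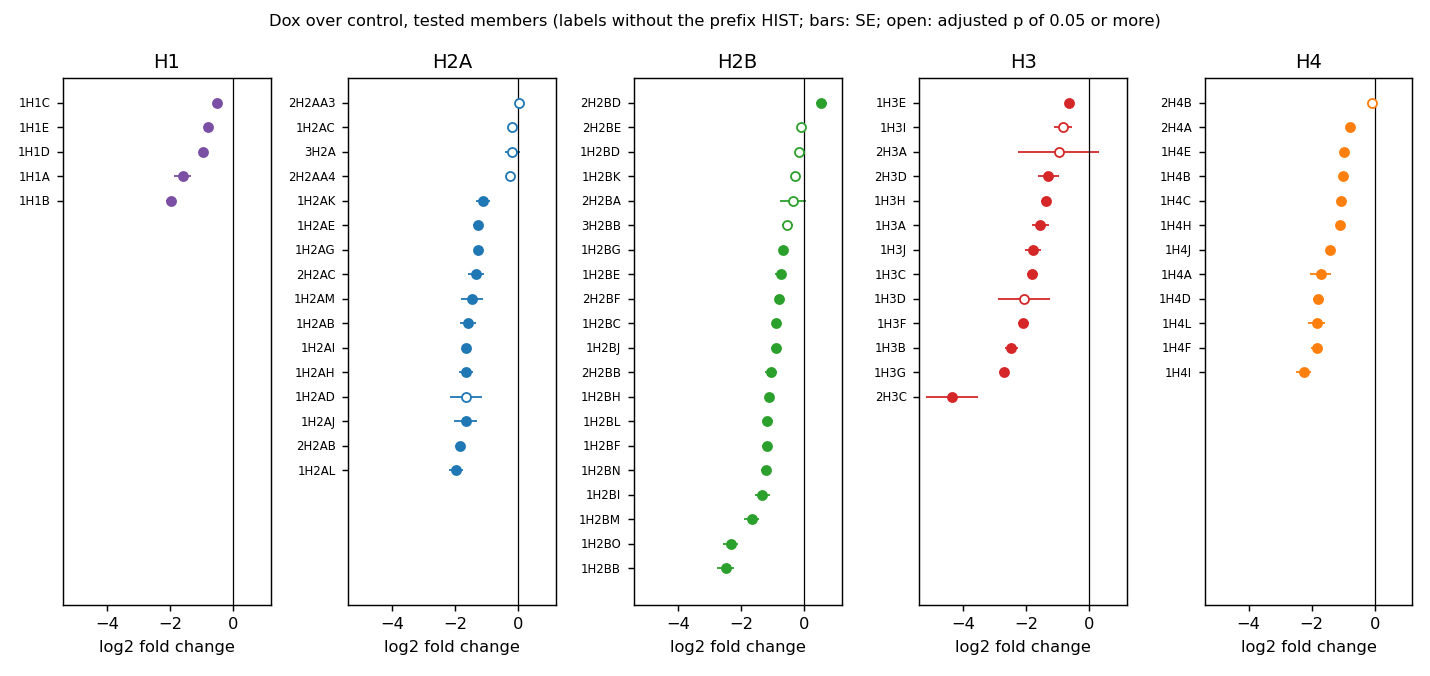
log2 fold change (Dox over control, edgeR) of each tested member by class, with bars for its standard error and filled points for adjusted p under 0.05. Most points lie below 0 in every class, and HIST2H2BD (0.56) is the 1 filled point above it.

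By position, HIST1 was at 372 and 387 CPM in Dox, against 680.1 and 691 CPM in control, and 44 of its 50 tested genes fell (median -1.41). HIST2 was at 98.8 and 104.5 CPM in Dox, against 148 and 144 CPM in control, with 7 of 14 lower, 1 higher and a median of -0.78. HIST3 was at 3.18 and 3.81 CPM in Dox, against 4.62 and 4.27 CPM in control, and 0 of 2 tested genes passed. Split at gaps of over 200000 bases, HIST1 formed 4 groups in GENCODE 29 coordinates (GRCh38). The 2 testis genes at chr6:25726132-25727292 had no counts. In the largest group, 32 genes at chr6:26017085-26285638, 26 of 30 tested genes fell (median -1.23). At chr6:27125897-27147515, 4 of 5 fell (median -1.29). At chr6:27807444-27893843, 14 of 15 fell (median -1.66), and the summed level was 37.5 and 39.7 CPM in Dox, against 108 and 109 CPM in control (log2 difference -1.48, against -0.75 for the largest group). The difference between these groups of genes was not tested.

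**Figure D3:**
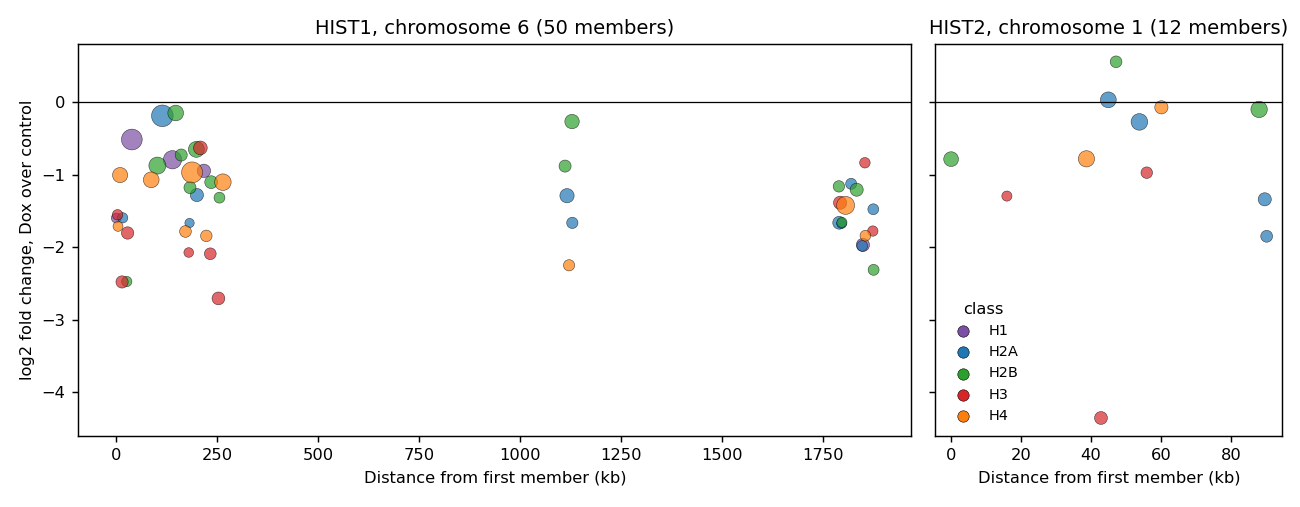
log2 fold change (Dox over control, vertical axis) against the distance in kilobases from the first member plotted, for HIST1 (left) and 12 of the 14 HIST2 members (right, without HIST2H2BA and HIST2H2BB, which lie far from the rest). Point area grows with mean CPM, and the large points near 0 in HIST1 are members with many counts such as HIST1H2AC (-0.19).

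H2A and H2B genes often lie head to head, sharing the DNA between their starts. Among the members 12 such pairs were found with starts at most 500 bases apart, and 11 had both genes tested. The fold changes of partners went together loosely (Spearman rho = 0.58 over 11 pairs that share libraries and, in part, promoters, given as a description). HIST1H2AJ (-1.67) and HIST1H2BM (-1.66), with starts 304 bases apart, both fell, by nearly the same amount. Other pairs parted. HIST1H2BC fell (-0.87) while HIST1H2AC, 219 bases away, did not pass (-0.19). HIST2H2AC fell by 1.34 while HIST2H2BE, 323 bases away, did not pass (-0.10), although their promoter windows overlap, the H2BE window being printed above. HIST1H2AH fell by 1.67 while HIST1H2BK, 331 bases away, did not pass (-0.27). The differences within pairs were not tested.

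Members with a long or spliced annotated transcript had a smaller median change than the others. Of the 27 members with a transcript of more than 1 exon or of over 1000 bases, all tested, 19 fell and 1 rose (median -0.88). Of the 46 with only shorter, unspliced transcripts, 32 of 39 tested genes fell (median -1.60). The medians differed by 0.71, and by 0.38 when Dox 1 was left out. Members with a long or spliced transcript summed to 279.8 and 272 CPM in Dox, against 447 and 450.4 CPM in control, and the others to 194 and 223 CPM in Dox, against 386 and 389 CPM in control. In the sums the separation was smaller, with log2 differences of -0.70 and -0.89. A grouping by the stem-loop was chosen after the values were seen. In it, the 22 members with a transcript running over 100 bases past the stem-loop had a median of -0.92 (15 of 22 lower). The 10 whose stem-loop transcripts all end within 100 bases had a median of -1.08 (5 of 8 tested lower). The 41 with no match had -1.63 (31 of 36 tested lower). Many of these 41 have only a short annotated transcript, such as HIST1H2BB (381 bases) and HIST1H4F (312 bases). A stem-loop beyond the annotated end would be missed, so the 41 are not known to lack it. Members with higher mean CPM tended to have smaller changes (Spearman rho = 0.48 over 66 members, a description), and the members with a long or spliced transcript held 59.1% and 55.0% of member counts in Dox, against 53.7% and 53.6% in control. The part of count level in the difference of medians was not tested.

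RSEM also gives the mean length of a gene's transcripts weighted by their estimated abundance, and this can be read in the 15 members with more than 1 annotated transcript. The mean length was greater in both Dox libraries than in both control libraries for 9 of them, against 16.3% of 13909 genes with several transcripts, and smaller for 1, HIST1H2AC, against 20.7%. In 5 members the groups overlapped. The median log2 ratio of mean length, Dox over control, was 0.09 in these members and -0.00 over all such genes. HIST1H4H had a mean length of 557 and 545 bases in Dox, against 486 and 485 bases in control. HIST2H4A, whose stem-loop is printed above, had 770.2 and 682 bases in Dox, against 602 and 618 bases in control. It shares reads with its copy HIST2H4B, itself among the 9, and overlaps HIST2H3C on the opposite strand, so its length is uncertain. HIST1H2BN had 1043 and 1034 bases in Dox, against 901 and 903 bases in control, and it overlaps HIST1H2AK and HIST1H2AL. HIST1H2AC had 1647 and 1651 bases in Dox, against 1663 and 1660.3 bases in control, a small difference in which the groups did not overlap.

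For members with exactly 2 annotated transcripts the mean length gives the share of the longer. HIST1H2BD has a transcript of 496 bases that ends 39 bases after the stem-loop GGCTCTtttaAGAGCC and a spliced one of 789 bases without it. The longer made up 31.9% and 36.4% of its transcripts in Dox, against 14.1% and 15.2% in control. For HIST1H2BC (571 and 659 bases, the longer again without the stem-loop) the share was 8.22% and 10.6% in Dox, against 2.18% and 2.05% in control. Both shares were higher in both Dox libraries, and in both genes the longer form is the one that lacks the stem-loop. HIST1H2BE has 497 bases ending 1 base after its stem-loop, and a longer form of 2585 bases, at 5.08% and 6.74% in Dox, against 2.05% and 0.925% in control. For HIST1H3E (462 and 2679 bases) the share was 19.0% and 14.3% in Dox, against 9.08% and 11.8% in control. In HIST1H3J, at 24.3% and 10.0% in Dox against 22.2% and 12.0% in control, and in HIST2H2BB the groups overlapped. They also did in HIST2H2BA, which had 7.24 and 10.6 counts in Dox and 11.8 and 11.3 in control, with the longer form at 0% and 0% in Dox, against 0% and 50.8% in control. These shares are estimates from reads divided between overlapping transcripts, they carry no interval, and HIST1H2BD and HIST1H2BE overlap a gene on the opposite strand.

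**Figure D4:**
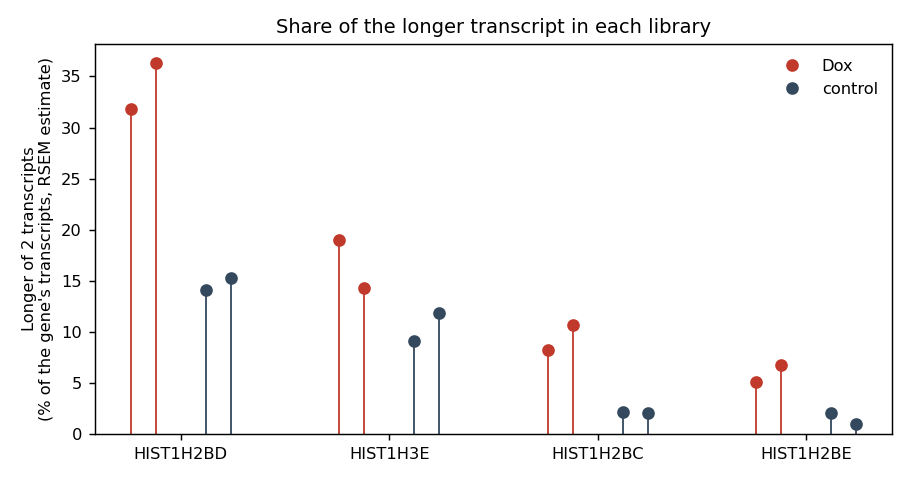
Share of the longer of 2 annotated transcripts (percent of the gene's transcripts as RSEM estimated them, vertical axis) in each library for 4 members, with Dox in red on the left and control in grey on the right. Of the members with exactly 2 annotated transcripts, the 4 shown are those in which both Dox values lie above both control values. HIST1H2BD is at 31.9% and 36.4% in Dox against 14.1% and 15.2% in control.

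Of 67 tested genes for histone gene transcription, 3′ end processing, decay and chaperones, 14 were called lower and 2 higher while 51 did not pass, where 13.8% of all genes were lower and 16.5% higher, and the median log2 fold change was -0.10. These counts depended on single libraries. More supply genes were called when 1 Dox library was left out, and fewer when 1 control library was. In such fits the spread rests on the 1 remaining pair, and the Dox pair differed more than the control pair. The share of all genes called in those fits was not taken, so their counts are not read as a trait of the list. Among the regulators of transcription CCNA2, the S-phase cyclin A, was at 2.78 and 3.24 CPM in Dox, against 10.4 and 10.2 CPM in control (edgeR log2 fold change -1.77, SE 0.13, adjusted p = 0.000405). Among the cyclins E, which with CDK2 phosphorylate the histone gene activator NPAT, CCNE2 fell by 0.97 and CCNE1 rose by 0.62 on the log2 scale, and CDK2 fell by 0.35. CCNE1 and CDK2 did not pass without either control library, nor CCNE2 without control 2. NPAT itself was at 31.5 and 25.7 CPM in Dox, against 21.01 and 22.9 CPM in control (0.38, SE 0.12, edgeR adjusted p = 0.0547), and did not pass. Neither did CASP8AP2 (0.27), its partner in histone locus bodies, nor HINFP (-0.34), the H4 gene activator.

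Of 23 genes for 3′ processing 2 fell and 21 did not pass, against 13.8% of all genes called lower. SLBP, the protein that binds the stem-loops printed above, was at 19.4 and 20.04 CPM in Dox, against 24.2 and 25.1 CPM in control (edgeR log2 fold change -0.32, SE 0.08, adjusted p = 0.0292). LSM11, a subunit of the U7 particle that cuts histone transcripts, was at 9.05 and 9.26 CPM in Dox, against 12.1 and 12.3 CPM in control (-0.41, SE 0.09, edgeR adjusted p = 0.02). Both lay below control in each Dox library, and neither passed without control 1 or control 2. LSM10 (0.16), the partner of LSM11, and ZNF473 (-0.08), which associates with the same particle, did not pass. In the decay list 2 of 11 fell, LSM1 (-0.41), part of the ring that marks transcripts for decapping, and DCP2 (-0.35), the decapping enzyme, again not without either control library. ERI1 (0.12), an exonuclease that trims histone transcripts at the stem-loop, did not pass. With 13.8% of all genes called lower, 2 of 11 is not read as a trait of the decay list.

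Of 22 chaperones and carriers of new histones, 7 fell and 1 rose, where 13.8% of all genes were lower and 16.5% higher. ASF1B, the H3-H4 chaperone of dividing cells, was at 0.631 and 0.97 CPM in Dox, against 2.59 and 2.20 CPM in control (edgeR log2 fold change -1.57, SE 0.25, adjusted p = 0.00618). Its relative ASF1A fell by 0.60, NASP, which holds a reserve of H3-H4, fell by 0.53, RBBP7, a histone-binding subunit of several complexes, fell by 0.61, and MCM2, a helicase subunit that also binds H3-H4, fell by 0.84. The FACT subunits SSRP1 (-0.57) and SUPT16H (-0.24) fell. ASF1A did not pass without control 1, and NASP and SUPT16H did not pass without either control library. ATRX, a remodeller that works with DAXX to deposit H3.3, was at 164 and 126 CPM in Dox, against 87.7 and 85.2 CPM in control (0.75, SE 0.13, edgeR adjusted p = 0.00744). CHAF1A (-0.09) and CHAF1B (-0.29), subunits of the chromatin assembly factor that works at replication forks, did not pass.

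**Figure D5:**
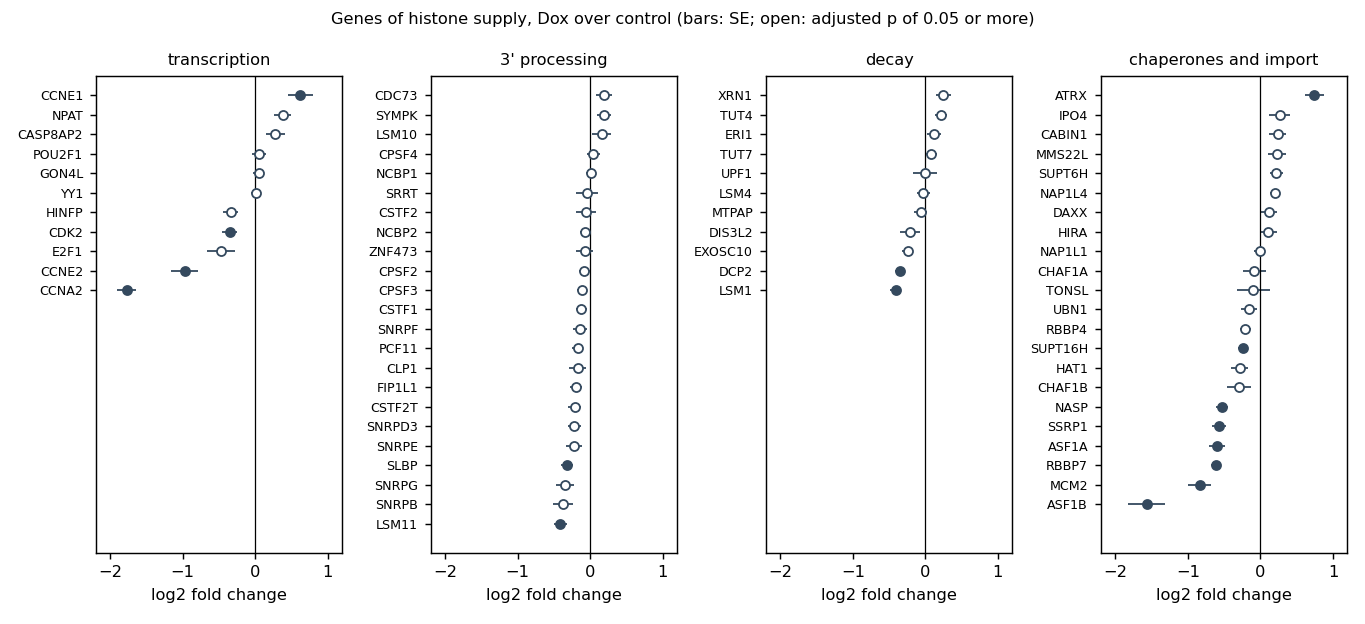
log2 fold change (Dox over control, edgeR, horizontal axis) of 67 genes of histone supply in 4 lists, with bars for standard errors and filled points for adjusted p under 0.05. CCNA2 (-1.77) and ASF1B (-1.57) lie farthest to the left, and ATRX (0.75) and CCNE1 (0.62) are the filled points to the right of 0.

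Of 10 replication-independent variants, a list chosen after the data were seen, 5 fell, none rose and the other 5 did not pass. Of all genes, 13.8% were lower and 16.5% higher. The median of the variants was -0.45 on the log2 scale, against -1.24 for the tested members. H2AFZ, which encodes H2A.Z, was at 55.3 and 54.1 CPM in Dox, against 95.2 and 98.8 CPM in control (edgeR log2 fold change -0.83, SE 0.07, adjusted p = 0.000665). H3F3B, a source of H3.3, was at 166 and 171 CPM in Dox, against 247 and 253 CPM in control (-0.57, SE 0.07, edgeR adjusted p = 0.0025). H3F3A, the other source of H3.3, fell by 0.59, H2AFV fell by 0.52 and the macroH2A gene H2AFY2 fell by 0.47. H2AFY, the other macroH2A gene, at 89.0 and 89.7 CPM in Dox against 80.3 and 79.2 CPM in control, did not pass (0.16), nor did the linker variant H1F0 (-0.22). The difference between variants and replication-dependent genes was not tested.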

How the data were processed

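RNA of 2 Dox and 2 control libraries of BJ cells was analysed from gene tables that the authors deposited. The submitters' processing notes name RSEM, STAR, Picard, cutadapt and hg38. Their versions, the annotation release and the strand setting were not given in the sources used here. The deposited expected counts are RSEM estimates per gene, per the file headers, and can be fractional. Values in TPM, as deposited, are scaled by transcript length and to a fixed total, and the deposited FPKM values, per the file headers, were not used. Mean transcript lengths were taken from the same tables as deposited.

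Expected counts were rounded, kept by filterByExpr (minimum count 10, minimum total 15), scaled by TMM and tested in edgeR 4.0.16 (quasi-likelihood, group as the only term, R 4.3.3) over all genes, with Benjamini-Hochberg adjustment and a threshold of 0.05. Standard errors are the log2 fold change divided by the square root of F. limma 3.58.1, DESeq2 1.42.0 and Python 3.11.15 served for the rest, and the script was tested on simulated data. Shares have Wilson 95% intervals for counting error only. Gene positions and transcripts are GENCODE 29, which held 99.5% of gene identifiers and the length of 57 of 58 single-transcript members. Over 16749 genes the replicate differences of Dox and control correlated at r = 0.0383, so the replicate numbers were not taken as pairs.

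The members, lists and tests were chosen with earlier results of these data known. Named genes were, per class, the 3 most abundant, the 2 lowest and the 2 highest in fold change, near-identical copies, testis forms, members tested for length, and set or called genes of supply. HIST1H3B, HIST1H2BK, the head-to-head pairs, the variants and HIST4H4 were named after their values were seen.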

Additional observations from a re-analysis of the deposited data

How the results depend on the processing

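The sum of all members (log2 difference -0.79) was -0.72 with library totals alone and -0.82 to -0.75 with each library left out. The class sums stayed negative under every alternative run, with H1 from -0.87 to -0.46, H2A from -0.52 to -0.41, H2B from -0.63 to -0.55, H3 from -1.81 to -1.50, H4 from -1.11 to -1.001 and HIST3 from -0.48 to -0.03. Members called lower (51) numbered 44 to 60 with each library left out, 33 by glmTreat and 18 by limma on either TPM scale. Members called higher (1) numbered 0 by DESeq2, limma on either TPM scale, glmTreat or among protein-coding members alone, and 0 to 1 with each library left out, where the gene without control replicate 2 was HIST2H3A in place of HIST2H2BD. Supply genes called lower (14) numbered 2 by limma on log2(TPM + 1), 2 by glmTreat, 23 with a GC trend offset and 6 to 31 with each library left out, and those called higher (2) numbered 0, 0, 11 and 1 to 13. The difference between the medians of members with a long or spliced transcript and of the others ran from 0.38 to 0.86 and the number of members with longer mean length in Dox from 9 to 12 with each library left out, where the last alternative was added after seeing the data. The replicate block, a description since the numbers pair nothing, gave 54 members lower and 1 higher.

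Of 53 named genes 12 kept their direction and side of the threshold under all alternatives and 6 changed sign under some. CHAF1A was 0.046 and 0.089 on log2(TPM + 1) and log2(TPM + 0.1), and -0.23 to 0.033 with each library left out, positive without Dox replicate 1. On the same scales HIST2H2BE was 0.041 and 0.046, HIST2H4B 0.0215 and 0.0144, and ZNF473 0.11 and 0.22. HIST2H4B was also -0.26 to 0.12 with each library left out, positive without Dox replicate 1 (0.06) and control replicate 1. HIST2H2AA3 was -0.0008 without a filter and -0.10 to 0.16 with each library left out, negative without Dox replicate 2 (-0.03) and control replicate 1. With copies summed, the value of -0.14 is that of HIST2H2AA3 and HIST2H2AA4 together. HIST2H3A was 0.30 on log2(TPM + 0.1) and -1.96 to 9.31 with each library left out, positive without control replicate 2. The cause was not tested, other than that copies share reads. Low counts limit single genes such as HIST1H1A, and 2 libraries per group limit all tests.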
